A study of Mus musculus with 6 samples.

Results

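The epidermal differentiation complex (EDC) is a gene cluster whose products build the outer layer of the skin. Its members were taken here by name, as table entries whose symbols start with Sprr, Lce or S100a followed by a digit, plus Lor, Ivl, Flg2, Hrnr, Rptn, Crnn, Crct1 and Prr9. This gave 40 of the 14484 genes in the count table. All 40 lie on mouse chromosome 3 between positions 90511034 and 93564643 (mm10), a stretch of 3.054 Mb. The annotation holds 59 protein-coding genes that meet the naming rule there, and the other 19, Flg among them, were not analysed here.

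Messenger RNA was sequenced from the skin of 3 ATR mD/mD and 3 ATR WT samples. The genotype of the ATR mD/mD samples was ATR fl/fl; Braf CA/+; Cre +, with floxed alleles of the replication stress kinase gene Atr that lose part of its kinase domain, and that of the ATR WT samples was ATR +/+; Braf CA/+; Cre +. A Cre-dependent Braf allele and Cre were thus shared by both groups, as was the C57BL/6-129J strain background. Nevi, benign growths of pigment cells, are named in the design text. The promoter that drives Cre and the age of the mice are not in the labels. Nor do the labels say that each sample is a different animal, so a p-value here reflects variation from sample to sample.

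Keratinocytes that leave the basal layer switch on the EDC in steps. Involucrin (Ivl) and the small proline-rich proteins (Sprr) are cross-linked early beneath the cell membrane, loricrin (Lor) then becomes the bulk of the cornified envelope, and the late cornified envelope proteins (Lce) are added near the surface. Flg2, Hrnr, Rptn and Crnn encode long repeat proteins that begin with an S100 domain, and the S100a genes encode small calcium-binding proteins, among which S100a3 is known from the hair cuticle. Some EDC products are thus made in the interfollicular epidermis and some in the growing hair follicle, which produces hair keratins only in its growth phase.

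The libraries held between 34723600 and 46847751 gene counts. Hair genes divided them across genotype. The mean of 30 hair shaft and inner root sheath genes, none of them a member, was -0.23, 2.02 and 7.13 log2 CPM (read counts scaled to library size) in ATR mD/mD 1, 2 and 3, and 1.77, 6.90 and 7.21 log2 CPM in ATR WT 1, 2 and 3. ATR mD/mD 3, ATR WT 2 and ATR WT 3 are called the hair-rich libraries below. The split is a measured property and not a group of the study, so it is described with no test. Atr, the targeted gene, had 728, 874 and 865 counts in ATR mD/mD and 640, 1065 and 1182 counts in ATR WT, and a count over the whole gene does not check the loss of part of it. The skin label held: the basal keratin Krt5 lay between 3616 and 5360.2 CPM and the suprabasal keratin Krt10 between 2660.2 and 6312 CPM. The melanocyte gene Dct had 50.6, 53.0 and 394 CPM in ATR mD/mD and 92.5, 380.3 and 288 CPM in ATR WT, highest in the hair-rich libraries. The summed level of 4 Y-linked genes was 0.143, 193 and 202 CPM in ATR mD/mD and 152, 0.046 and 0.143 CPM in ATR WT, so both groups held libraries with and without it, and each group came from more than 1 animal. In ATR WT the Y-linked split fell together with the hair split, so there the 2 cannot be told apart. In ATR mD/mD, libraries 2 and 3 both had Y-linked reads and differed in hair level. In whole skin, fewer cells of a type and less RNA per cell cannot be told apart.

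Of the 40 EDC genes, 36 had a promoter entry in RefSeq (GRCm38.p6, the mm10 assembly). The 120 bases before the RefSeq start of 8 of them are shown because these genes went opposite ways between libraries: Crnn, Prr9 and Sprr1a had the hair-rich libraries as their 3 highest, and Lor, Lce1m, Lce1a2, Lce1h and Lce1i had them as their 3 lowest. Capitals mark TATAAA (the TATA box), TGANTCA (the AP-1 element), ATAAAAG and CTGTCTCAC, searched on both strands. TATAAA and ATAAAAG overlap where a run reads TATAAAAG.
Crnn (chr3:93144669-93144788, plus strand): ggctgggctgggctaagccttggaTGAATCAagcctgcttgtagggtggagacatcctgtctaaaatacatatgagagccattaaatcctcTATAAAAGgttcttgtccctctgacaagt
Prr9 (chr3:92123948-92124067, minus strand): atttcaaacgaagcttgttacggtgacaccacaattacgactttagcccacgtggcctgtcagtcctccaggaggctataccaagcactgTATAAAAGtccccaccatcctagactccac
Sprr1a (chr3:92485882-92486001, minus strand): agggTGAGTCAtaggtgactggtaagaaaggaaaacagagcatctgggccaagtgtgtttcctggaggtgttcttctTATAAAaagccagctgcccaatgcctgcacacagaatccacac
Lor (chr3:92083143-92083262, minus strand): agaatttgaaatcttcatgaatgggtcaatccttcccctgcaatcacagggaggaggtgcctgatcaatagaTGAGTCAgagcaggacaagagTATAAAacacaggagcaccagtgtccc
Lce1m (chr3:93019062-93019181, minus strand): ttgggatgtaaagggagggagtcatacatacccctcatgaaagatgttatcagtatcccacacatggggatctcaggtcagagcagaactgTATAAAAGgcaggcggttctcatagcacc
Lce1a2 (chr3:92670316-92670435, minus strand): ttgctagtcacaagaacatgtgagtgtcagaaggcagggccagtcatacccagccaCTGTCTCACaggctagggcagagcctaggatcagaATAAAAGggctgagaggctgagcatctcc
Lce1h (chr3:92765066-92765185, minus strand): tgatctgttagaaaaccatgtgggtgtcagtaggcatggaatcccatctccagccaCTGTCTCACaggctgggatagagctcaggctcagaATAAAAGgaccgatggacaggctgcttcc
Lce1i (chr3:92778900-92779019, minus strand): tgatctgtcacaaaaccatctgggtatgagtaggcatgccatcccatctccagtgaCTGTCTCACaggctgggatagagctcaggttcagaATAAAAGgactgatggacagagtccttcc
By the median, the Lce1 windows were more alike than other pairs. Over the 250 bases before the start, the share of bases matched between windows had a median of 68.2% over 78 Lce1 pairs (37.2% to 85.6%). It had a median of 44.4% over 552 other pairs of members (0.4% to 64.4%). A share as low as 0.4% does not come from windows aligned end to end. The measure thus also reflects how much of the windows was matched, and 44.4% is not an identity of aligned bases. CTGTCTCAC, picked after the Lce1 windows were seen, occurred in 9 of 13 Lce1 windows and in 0.429% of all 27025 mouse promoters. ATAAAAG, picked the same way, occurred in 10 of 13 Lce1 windows and in 5.14% of all promoters. In these 10 it lay at position -28 or -29 from the RefSeq start. Within the TATAAAAG of Crnn and Prr9 it lay at -28 and -29. A window without the exact letters TATAAA is thus not shown to lack a TATA box. TATAAA was present in 14 of 36 EDC windows and 13.0% of all promoters, and in 2 of the 13 Lce1 windows. The AP-1 letters were present in 10 of 36 EDC windows and 6.87% of all promoters. They were in 7 of the 13 genes whose 3 highest libraries were the hair-rich ones and in 2 of the 13 whose 3 lowest were, Flg2 and Lor. Of the Lce1 windows, 0 of 13 held them. The 7 include Sprr2h and Sprr1b, which reached 1 CPM in the hair-rich libraries alone. Crnn, also among the 7, was under 1 CPM in ATR mD/mD 1. Among the 13 lowest, 10 are Lce1 genes, which resemble one another. A link between the AP-1 letters and hair level was not tested. Copies of a gene share sequence by descent, and a match is a run of letters, not a shown binding site.

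By genotype, no EDC gene passed the test. With edgeR's quasi-likelihood test and p-values adjusted over 14484 genes, 0 of the 40 members passed at 0.05, against 0.0483% of all genes, and 0 had an unadjusted p under 0.05, against 1.66% of all genes. The smallest adjusted p of a member was 0.9999. DESeq2, limma-voom and edgeR's exact test also called 0 members. The log2 fold change was negative in 18 members (48% of all genes) and positive in 22 (52% of all genes). The median over members was 0.05 and that over all genes 0.01. ATR mD/mD and ATR WT libraries overlapped in every one of the 40 members, while they did not overlap in 4.84% of all genes. Single libraries moved these summaries: an unadjusted p under 0.05 was reached by 10 members without ATR mD/mD 3 and by 13 without ATR WT 1, with 0 calls after adjustment. The share of all genes under 0.05 was not counted in these fits, so the counts are not a result about the EDC. Without ATR mD/mD 3 no ATR mD/mD library left was hair-rich, and without ATR WT 1 every ATR WT library left was. Here and below, fits without either library mix genotype with hair level more than the main test does. Without ATR mD/mD 2, 10 members were negative, and the median turned negative when ATR mD/mD 3 (-0.028) or ATR WT 2 (-0.034) was left out. The plot of fold changes by gene shows how the precision differed, with standard errors (SE) from 0.165 in S100a11 to 2.14 in Crnn.

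**Figure D1:**
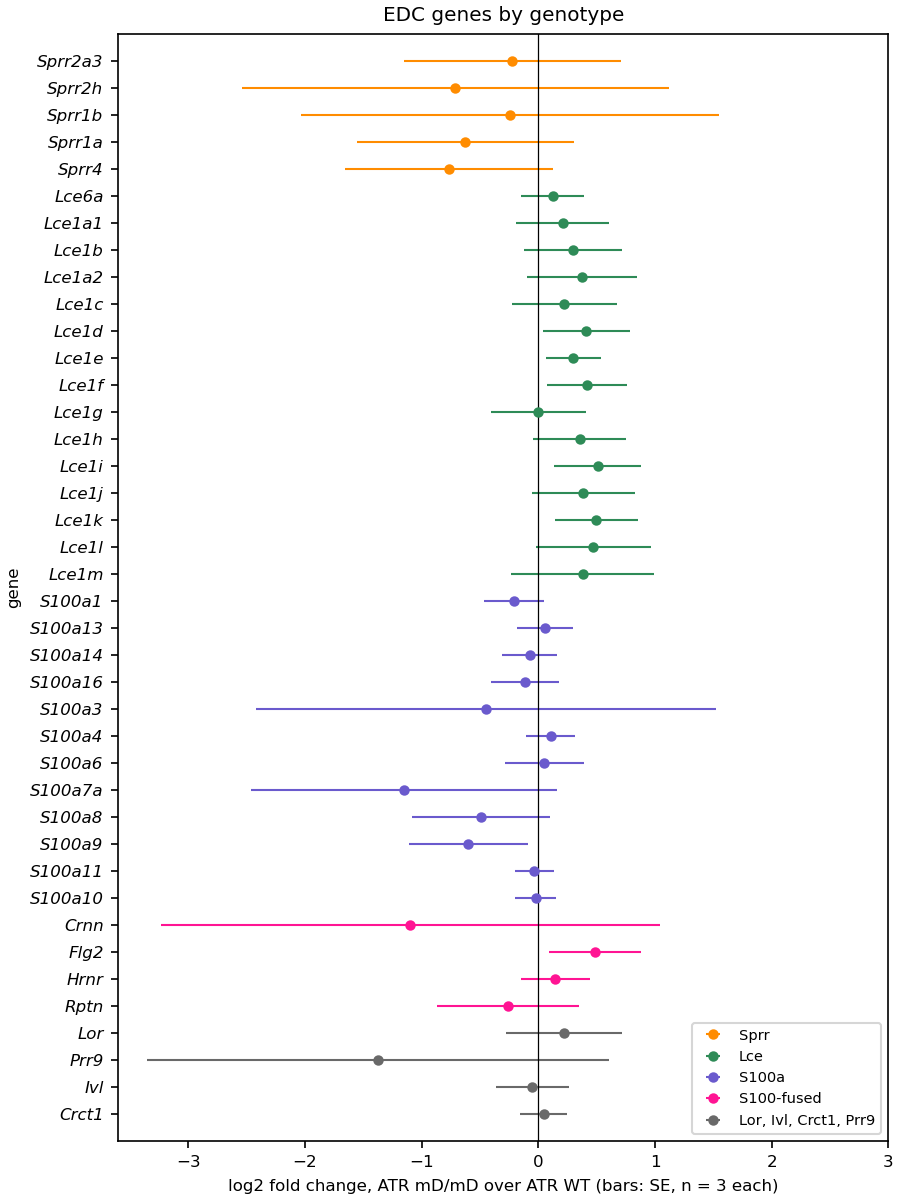
Log2 fold change of each of the 40 EDC genes in ATR mD/mD over ATR WT (horizontal axis), with bars for the SE (n = 3 each) and colours for the subfamily. The 15 Lce genes lie between 0.00 and 0.51 and the 5 Sprr genes between -0.77 and -0.22, and the longest bars belong to Crnn, Prr9 and S100a3.

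Sorted by hair level, the EDC split into genes that were high, genes that were low and genes that did neither in the hair-rich libraries. In 13 of 40 members the 3 hair-rich libraries were the 3 highest, against 19.6% of all genes. In 13 other members they were the 3 lowest, against 17.1% of all genes, and 14 members had neither order. The gap was wide in the first set: in 8 members the lowest hair-rich library lay more than 1 log2 unit above the highest of the other 3, against 2.46% of all genes. Every gene in the table reached 1 CPM in at least 3 libraries, and Sprr2h and Sprr1b did so in the hair-rich libraries alone, so they could be listed only by being high there. Without the 170 genes of which this holds, 11 members were highest in the hair-rich libraries, against 18.6% of genes, and 6 by more than 1 log2 unit, against 1.54%. Crnn and S100a7a are among these 6. Crnn was under 1 CPM in ATR mD/mD 1, and S100a7a in ATR mD/mD 1 and ATR WT 1. They too could reach 1 CPM in 3 libraries only with a hair-rich one. Such genes were not taken out, so the effect of the floor is not fully removed. In 0 members did the reverse gap exceed 1 log2 unit, against 0.407% of all genes.

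**Figure D2:**
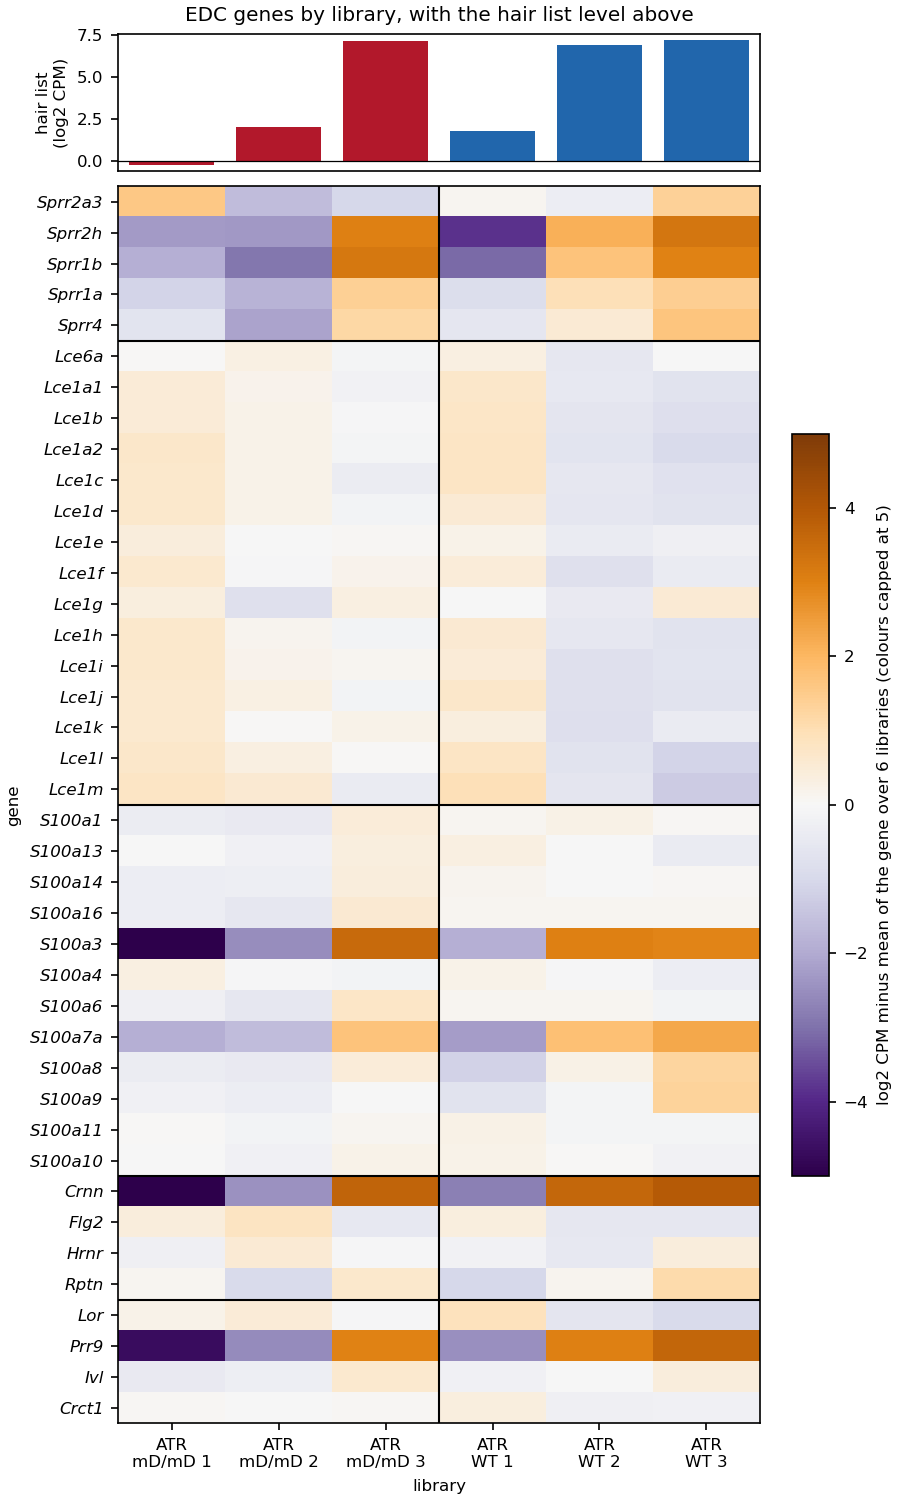
Level of the 40 EDC genes (rows, by subfamily and then by position) in the 6 libraries (columns), as log2 CPM minus the mean of the gene (colours capped at 5), with the hair list level in log2 CPM as bars above. Crnn, Prr9, S100a3, S100a7a and 4 Sprr genes are high in ATR mD/mD 3, ATR WT 2 and ATR WT 3, and most Lce genes are low in ATR WT 2 and ATR WT 3.

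Crnn encodes cornulin, a late differentiation protein with an S100 domain (chromosome 3, 93144787 to 93149819, plus strand). It had 0.114, 1.96 and 139 CPM in ATR mD/mD 1, 2 and 3, and 1.57, 133 and 166 CPM in ATR WT 1, 2 and 3. These levels rest on 4, 77 and 4860 counts in ATR mD/mD and 57, 5804 and 8134 counts in ATR WT. Each genotype held high and low libraries, and the genotype difference of -1.10 on the log2 scale was smaller than its SE of 2.14 (adjusted p = 0.9999 by edgeR's quasi-likelihood test). Its size rested on single libraries: leaving out ATR mD/mD 3 gave -6.57 (SE 2.25, edgeR unadjusted p = 0.0293), leaving out ATR mD/mD 1 gave -0.51, and limma-voom gave -3.47. Without ATR mD/mD 3 no ATR mD/mD library left is hair-rich, so the value of -6.57 mixes genotype with hair level.

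Prr9 encodes a proline-rich protein and is the nearest measured member to Lor (92122204 to 92123947, minus strand). It had 3.97, 17.3 and 805 CPM in ATR mD/mD and 18.1, 834.5 and 1288 CPM in ATR WT. The step between libraries of 1 genotype ran from 5.52 to 7.64 log2 units, and the genotype difference was -1.37 (SE 1.98, log2 scale; edgeR adjusted p = 0.9999). Without ATR mD/mD 3 it was -6.07 (SE 1.97, edgeR unadjusted p = 0.0243), and without ATR WT 3 it was -0.63. S100a3, the hair cuticle member of the S100 family (90560578 to 90602702, plus strand), had 1.14, 6.93 and 468 CPM in ATR mD/mD and 10.7, 327 and 312 CPM in ATR WT. By genotype it differed by -0.45 (SE 1.97, log2 scale; edgeR adjusted p = 0.9999). That difference was -5.74 without ATR mD/mD 3 and turned to 0.13 when ATR mD/mD 1 was left out. Its exons overlap those of Gm23464 and Gm42674. Of its 50-base runs, 3.59% also occur in transcripts of other genes, with Gm42674 sharing the most. In all 3 genes ATR mD/mD 1, the library with the lowest hair level, was also the lowest.

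**Figure D3:**
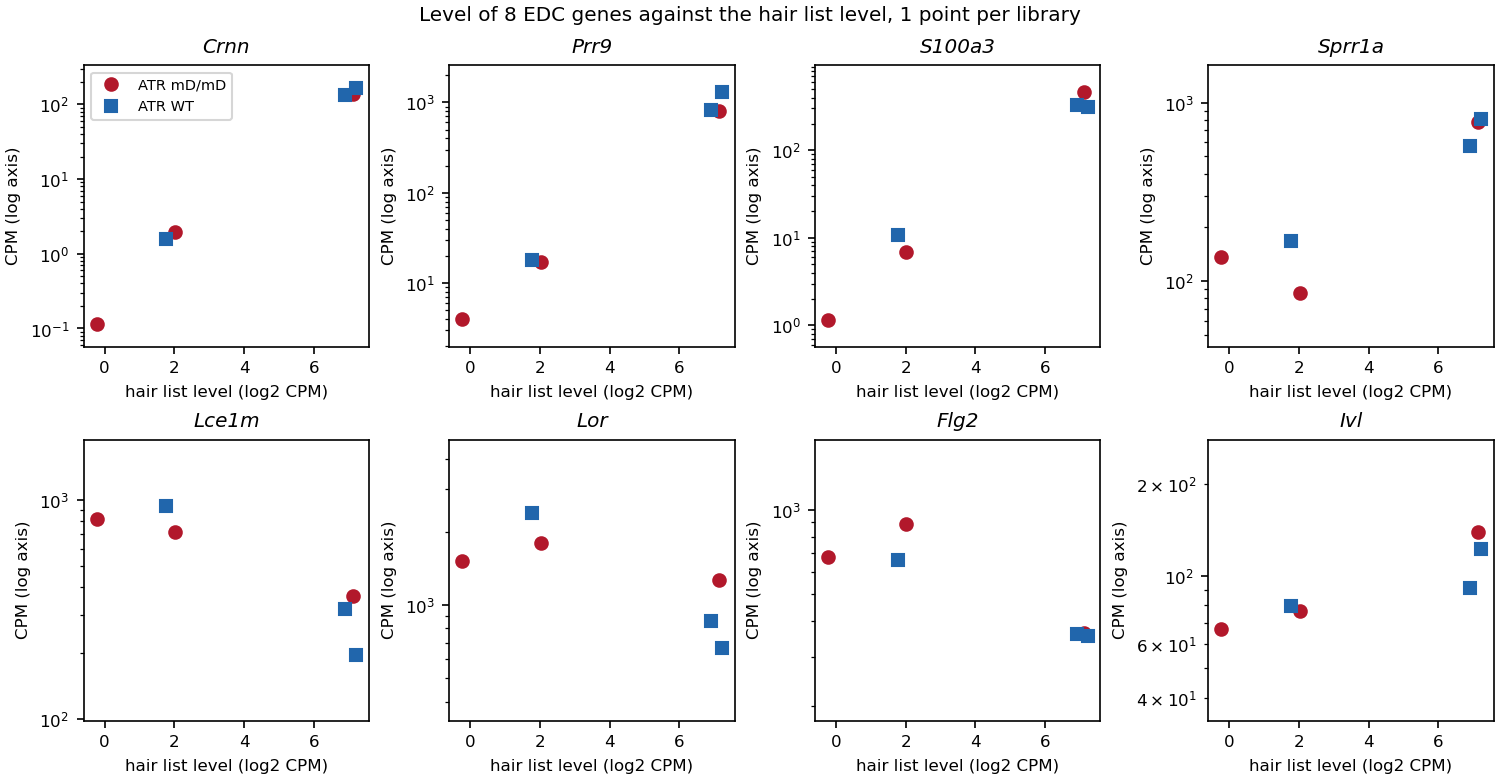
CPM of 8 EDC genes (vertical log axis) against the hair list level in log2 CPM (horizontal axis), 1 point per library, circles for ATR mD/mD and squares for ATR WT. Crnn, Prr9, S100a3 and Sprr1a are high in the 3 libraries on the right, Lce1m, Lor and Flg2 are low there, and Ivl differs by 2.08-fold between its highest and lowest library.

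The Sprr genes encode precursors that bridge other envelope proteins, and 4 of the 5 measured had the hair-rich libraries as their 3 highest. Sprr1a was the most abundant, at 529 CPM per kilobase of exon. It had 137, 85.8 and 783 CPM in ATR mD/mD and 167, 575 and 811 CPM in ATR WT, a genotype difference of -0.63 (SE 0.93, log2). Sprr4 had 13.7, 4.82 and 48.6 CPM in ATR mD/mD and 14.4, 30.9 and 68.9 CPM in ATR WT (log2 fold change -0.77, SE 0.89). Without ATR mD/mD 3 these differences were -2.22 in Sprr1a (edgeR unadjusted p = 0.0219) and -2.04 in Sprr4, and without ATR WT 3 they were -0.15 and -0.03. Even outside the hair-rich libraries these genes were present at up to 167 CPM and 14.4 CPM.

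Sprr2h and Sprr1b were nearly silent outside the hair-rich libraries. Sprr2h had 9, 10 and 434 counts in ATR mD/mD and 2, 285 and 708 counts in ATR WT. Sprr1b had 9, 4 and 366 counts in ATR mD/mD and 3, 161 and 439 counts in ATR WT. Their log2 fold changes by genotype were -0.71 (SE 1.83) and -0.24 (SE 1.79), smaller than their SE. Sprr2a3 broke the family pattern, with 6.32, 0.635 and 0.973 CPM in ATR mD/mD and 2.21, 1.63 and 5.38 CPM in ATR WT. It was highest in ATR mD/mD 1 and ATR WT 3, libraries at opposite ends of the hair scale. Of its 50-base runs, 61.1% also occur in transcripts of other genes, with Sprr2a1 sharing more than any other gene, so its counts are uncertain.

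The Lce genes leaned the other way. Of the 14 measured Lce1 genes, 10 had the hair-rich libraries as their 3 lowest, as did Lce6a. The exceptions were Lce1e, Lce1f, Lce1g and Lce1k, and 0 Lce genes had these libraries as their highest. Summed over the 14 Lce1 genes, the level was 1673, 1356 and 886 CPM in ATR mD/mD and 1851, 691 and 532 CPM in ATR WT. The highest libraries were ATR mD/mD 1 and ATR WT 1 and the lowest was ATR WT 3, a 3.48-fold span.

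Lce1m had the highest level of the family, 589 CPM per kilobase of exon. It had 819, 710.4 and 366 CPM in ATR mD/mD and 942, 317 and 197 CPM in ATR WT, and its genotype difference was 0.38 (SE 0.61, log2). Lce1a2 had 209, 153 and 121 CPM in ATR mD/mD and 221, 84.5 and 67.7 CPM in ATR WT (log2 fold change 0.37, SE 0.47). Lce1c had 117, 86.8 and 58.6 CPM in ATR mD/mD and 128, 51.5 and 45.9 CPM in ATR WT (log2 fold change 0.22, SE 0.45). In each of these genes ATR mD/mD 3 lay above both hair-rich ATR WT libraries, and ATR mD/mD 1 and 2 lay below ATR WT 1.

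Genotype differences of the Lce genes were positive in 15 of 15, between 0.00 and 0.51 on the log2 scale with a median of 0.37, and none passed the test. The sizes and some signs rested on single libraries. Without ATR WT 1 the median was 0.91 and 12 of 15 had an unadjusted p under 0.05, with 0 calls after adjustment. The share of all genes under 0.05 was not counted there, and both ATR WT libraries left are hair-rich. Without ATR WT 3 the median was 0.13 and 12 of 15 were positive. Lce1i had 28.7, 20.8 and 19.7 CPM in ATR mD/mD and 26.1, 10.8 and 11.8 CPM in ATR WT. Its log2 fold change was 0.51 (SE 0.37, unadjusted p = 0.218, edgeR). Lce1k had 10.1, 6.73 and 7.70 CPM in ATR mD/mD and 8.69, 3.77 and 4.93 CPM in ATR WT (log2 fold change 0.50, SE 0.36, unadjusted p = 0.207, edgeR), the smallest p of the 40 members. Without ATR WT 1 the difference was 1.04 in Lce1i, 0.92 in Lce1k, 1.10 in Lce1a2 and 1.31 in Lce1m. The lowest values with 1 library left out were 0.29 in Lce1i and 0.27 in Lce1k, both without ATR WT 2, and 0.06 in Lce1a2 and -0.01 in Lce1m, both without ATR WT 3. The group with 1 hair-rich library of 3 is ATR mD/mD and the group with 2 of 3 is ATR WT, so genotype and hair level are not balanced in these means. Between 0% and 27.1% of the 50-base runs of an Lce1 gene occur in transcripts of other genes. Reads aligned to several places were left out, so counts of single Lce1 genes are uncertain. Lce1m is the Lce1 gene with no such run.

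Loricrin and filaggrin-2 shared their 3 lowest libraries with most Lce1 genes. Lor (92080271 to 92083142, minus strand) was the most abundant member, at 796 CPM per kilobase of exon. It had 1519, 1794 and 1260.3 CPM in ATR mD/mD and 2399, 859.7 and 666 CPM in ATR WT. The hair-rich libraries were its 3 lowest, and the genotype difference of 0.22 (SE 0.50, log2, unadjusted p = 0.671, edgeR) lay within the spread. It was 1.01 without ATR WT 1 and -0.11 without ATR WT 3. Flg2, whose product is processed in the stratum corneum as filaggrin is, had 675, 887 and 363 CPM in ATR mD/mD and 659, 360.2 and 355 CPM in ATR WT. The hair-rich libraries, at 355 to 363 CPM, lay below the other 3, at 659 to 887 CPM. Its log2 fold change was 0.49 (SE 0.40, unadjusted p = 0.262, edgeR). It was 0.18 when ATR mD/mD 2 was left out, 0.86 when ATR WT 1 was, and 0.13 with a hair level covariate.

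Ivl, the early envelope scaffold, spanned 2.08-fold. It had 67.2, 76.8 and 139 CPM in ATR mD/mD and 79.7, 91.5 and 122 CPM in ATR WT, with the hair-rich libraries highest by a small gap of 0.20 log2 units. Its genotype difference was -0.05 (SE 0.31, log2). Crct1, a cysteine-rich EDC gene beside Lce1m, spanned 1.53-fold, with 302, 289.8 and 305 CPM in ATR mD/mD and 375, 245 and 249 CPM in ATR WT. The S100-fused genes Hrnr and Rptn were low per length, at 4.79 and 2.30 CPM per kilobase. Hrnr had 44.0, 74.8 and 50.1 CPM in ATR mD/mD and 45.9, 36.9 and 69.8 CPM in ATR WT, in no order with hair level. Rptn had 8.95, 4.27 and 12.9 CPM in ATR mD/mD and 4.05, 9.06 and 18.1 CPM in ATR WT, the hair-rich libraries being highest by 0.02 log2 units.

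Most S100a genes varied less. S100a10 and S100a11, which bind annexins, had ranges of 227 to 304 CPM and 313 to 413 CPM over the 6 libraries, and S100a4, known from fibroblasts and immune cells, had 212 to 343 CPM. S100a13 had 50.1 to 86.2 CPM. Counts of S100a4 and S100a11 are uncertain, since 47.4% and 41.1% of their 50-base runs also occur in transcripts of other genes. The gene sharing the most was Gm42674 for S100a4 and Gm12854 for S100a11. S100a6, found in many proliferating cells, had 577, 471 and 1123 CPM in ATR mD/mD and 729, 736 and 629 CPM in ATR WT. S100a14, an epithelial member, had 413, 425 and 689 CPM in ATR mD/mD and 567, 510.5 and 529.9 CPM in ATR WT. In both, as in S100a1 and S100a16, ATR mD/mD 3 stood above the other 5 libraries, while ATR WT 2 and 3 differed from ATR WT 1 by -0.21 to 0.18 log2 units. Their log2 fold changes were 0.05 (SE 0.34) in S100a6 and -0.07 (SE 0.24) in S100a14.

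The inflammation-linked S100 genes were scarce. S100a7a, the mouse psoriasin relative, had 0.944, 1.17 and 12.2 CPM in ATR mD/mD and 0.745, 12.9 and 18.1 CPM in ATR WT, so that it joined Crnn and Prr9 in following the hair level (log2 fold change -1.15, SE 1.31). That value was -3.32 without ATR mD/mD 3 and -0.52 without ATR WT 3. S100a8 and S100a9 encode calprotectin, which neutrophils store and stressed keratinocytes make. S100a9 had 4.29, 3.96 and 4.92 CPM in ATR mD/mD and 3.06, 4.60 and 12.3 CPM in ATR WT (log2 fold change -0.60, SE 0.51). S100a8 had 5.32, 5.08 and 9.33 CPM in ATR mD/mD and 3.09, 8.23 and 16.4 CPM in ATR WT. Both genes had the hair-rich libraries as their 3 highest, by 0.63 log2 units in S100a8 and 0.10 in S100a9. ATR WT 3 was highest in both, and it also had the highest summed level of 7 measured neutrophil markers, 98.9 CPM against 34.3 to 67.9 CPM in the other 5. Of these markers, BC100530 had 25.4 CPM in ATR WT 3 and at most 3.35 CPM elsewhere, and Stfa3 had 13.0 CPM there and at most 6.81 CPM elsewhere. Others were highest in another library, Csf3r in ATR mD/mD 1 (8.15 CPM), Il1b in ATR WT 1 (11.2 CPM) and Clec4d in ATR WT 2 (29.0 CPM). The part of neutrophils in these values was not tested, and 11 of the 18 listed neutrophil markers were not analysed here.

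Along the chromosome, members with opposite patterns lay side by side. S100a3 and S100a7a had wider steps than the other S100a genes beside them. Prr9, with steps of at least 5.52 log2 units, comes next after Lor among the measured members, and the steps of Lor were negative in both genotypes. The 4 Sprr genes that were high in hair-rich libraries follow one another, and then come Ivl, Lce6a and the Lce1 genes. Crnn is followed by Flg2, and they went opposite ways.

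**Figure D4:**
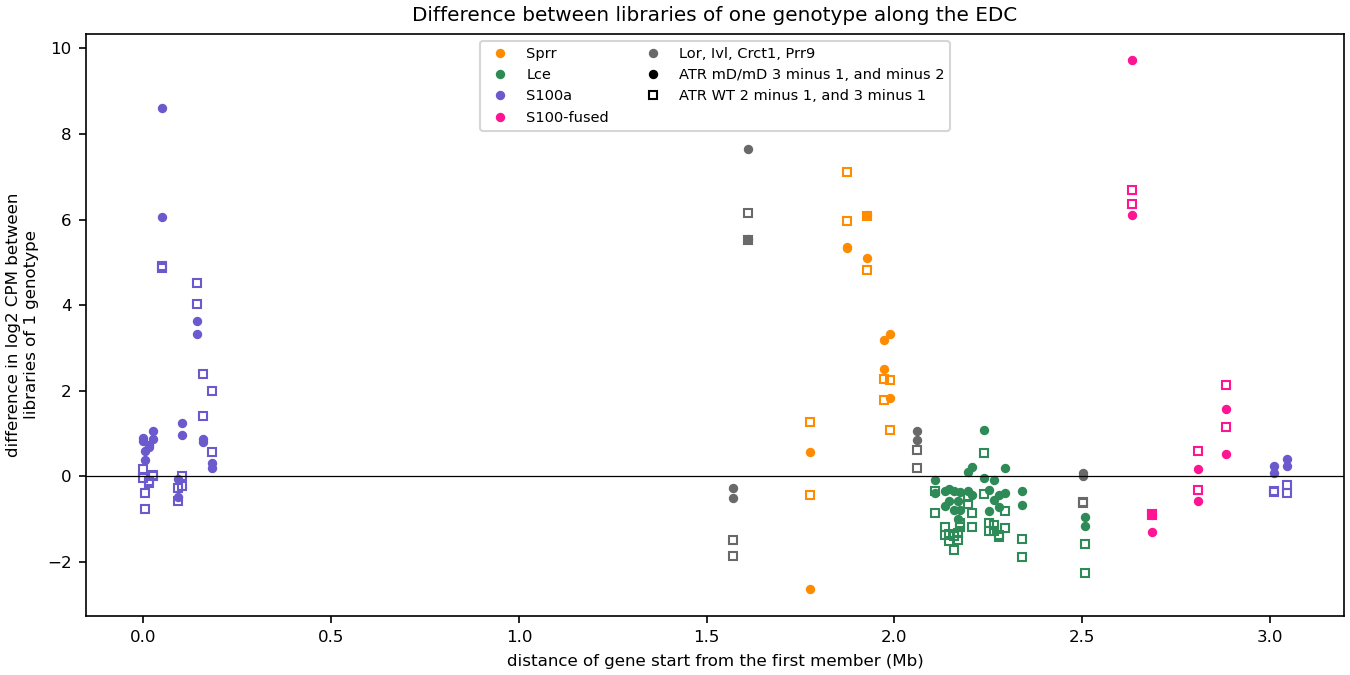
Difference in log2 CPM between libraries of one genotype for each EDC gene (vertical axis: ATR mD/mD 3 minus ATR mD/mD 1 or 2 as filled circles, ATR WT 2 or 3 minus ATR WT 1 as open squares) against the distance of the gene start from the first member in Mb (horizontal axis), coloured by subfamily. Tall points of Crnn (up to 9.72), S100a3 and Prr9 stand beside neighbours near or below 0.

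Libraries on the same side of the hair split were also set side by side. ATR mD/mD 3 was placed beside ATR WT 2 and 3, and ATR mD/mD 1 and 2 beside ATR WT 1, a view chosen after the data were seen. Hair levels were not equal within a side, at -0.23 log2 CPM in ATR mD/mD 1 and 1.77 in ATR WT 1. In 1 member (Prr9) every ATR mD/mD library was below its ATR WT counterparts, against 10.7% of all genes. In 2 members (Flg2 and Sprr1b) every one was above, also against 10.7% of all genes. For Flg2 the differences were 0.01 and 0.03 log2 units among hair-rich libraries and 0.04 and 0.43 among the others.

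Other genes of the cornification pathway were read in the same way. Of 36 measured cornification genes outside the complex, 0 passed, against 0.0483% of all genes. Log2 fold changes were negative in 17 (48% of all genes) and positive in 19 (52% of all genes), with a median of 0.01. The smallest p were those of Tgm5 and Klk5. Tgm5, a transglutaminase that cross-links envelope proteins, had 16.8, 20.1 and 16.1 CPM in ATR mD/mD and 31.4, 31.0 and 33.1 CPM in ATR WT. These groups did not overlap, as in 4.84% of all genes, and the difference was -0.85 (SE 0.14, log2 scale; edgeR adjusted p = 0.493). Klk5, a protease that sheds surface cells, differed by 0.94 (SE 0.36, log2 scale; edgeR adjusted p = 0.9999). The hair-rich libraries were the 3 highest in 6 of the 36 genes, Tgm3 among them, against 19.6% of all genes. They were the 3 lowest in 12, against 17.1% of all genes. Of 25 measured regulators of differentiation, 0 passed, 17 were negative (48% of all genes) and 8 positive (52%), with a median of -0.04. The hair-rich libraries were highest in 7 (19.6% of all genes) and lowest in 7 (17.1%). Of 5 EDC genes outside the naming rule, 0 passed. Tchh, the hair and tongue relative of filaggrin, had 5.15, 49.4 and 2778 CPM in ATR mD/mD and 35.6, 2648 and 3586 CPM in ATR WT. Tchh is also 1 of the 30 hair genes that defined the hair-rich libraries, so its split by hair level is no separate result. Kprp, a keratinocyte proline-rich protein gene, had 193, 203 and 85.3 CPM in ATR mD/mD and 189, 95.0 and 97.0 CPM in ATR WT.

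Krt10 marks the suprabasal cells in which loricrin and filaggrin-type genes are made, and member levels were also set against it within each library, a view chosen after the data were seen. The ratio of Flg2 to Krt10 was 0.140, 0.141 and 0.136 in ATR mD/mD and 0.105, 0.115 and 0.121 in ATR WT. It spanned 1.34-fold over the 6 libraries, while Krt10 itself spanned 2.37-fold. The groups did not overlap in this ratio. Flg2 was the 1 member of 40 for which this held, against 1.04% of all genes set against Krt10 in either direction and 0.345% in this direction. The ratio of the Lce1 sum to Krt10 was 0.347, 0.215 and 0.333 in ATR mD/mD and 0.294, 0.220 and 0.182 in ATR WT, a span of 1.91-fold against 3.48-fold for the Lce1 sum itself. The ratio of Lor to Krt10 was 0.315, 0.284 and 0.474 in ATR mD/mD and 0.381, 0.274 and 0.228 in ATR WT. In these last 2 ratios the groups overlapped.

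Other cell layers and cell types differed between libraries as well, and their part in the EDC values was not tested. The summed level of 8 suprabasal keratins was 9510.4, 11929 and 5988 CPM in ATR mD/mD and 11640.3, 6464 and 7258 CPM in ATR WT, lowest in the hair-rich libraries. That of 10 basal keratinocyte genes was 13626, 14977 and 13445 CPM in ATR mD/mD and 15287, 10383 and 12335 CPM in ATR WT. The 6 measured stress and wound keratinocyte genes summed to 1125, 1029 and 4416 CPM in ATR mD/mD and 1461, 2094 and 3597 CPM in ATR WT. Krt17 alone had 1065, 963 and 3670 CPM in ATR mD/mD and 1387, 1811 and 2599 CPM in ATR WT. The hair-rich libraries were the 3 highest in 4 of the 6, all keratins, against 19.6% of all genes. The other genes, Il1b and Defb14, were highest in ATR WT 1 (11.2 and 3.75 CPM). The 11 melanocyte genes summed to 156, 164 and 910.4 CPM in ATR mD/mD and 217, 913 and 636 CPM in ATR WT. Sox10, with the smallest p among them, had 17.6, 20.9 and 23.6 CPM in ATR mD/mD and 31.3, 43.8 and 35.0 CPM in ATR WT. Its groups did not overlap, as in 4.84% of all genes (log2 fold change -0.83, SE 0.18, edgeR adjusted p = 0.9999). The 12 skeletal muscle genes, by contrast, summed to 27914, 28134 and 9292 CPM in ATR mD/mD and 44267, 16570 and 10281 CPM in ATR WT. Over the 6 libraries, sums ran from 7758 to 18277 CPM for 10 fibroblast genes, from 1141 to 1908 CPM for 12 macrophage and dendritic cell genes and from 5011 to 9377 CPM for 10 sebaceous gland genes. None of the genes on these lists passed over all genes.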

How the data were processed

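Skin RNA of 3 ATR mD/mD and 3 ATR WT samples was sequenced after oligo dT selection with the TruSeq RNA v2 kit, per the labels' protocols, a kit that does not mark strand. FastQC, TopHat2 2.0.12, edgeR and the build mm10 appear in the submitters' processing notes. For the read counter and the annotation, the sources used here give no name. Per the file headers, the authors deposited unnormalized counts, 1 column a library. Beside them the authors deposited log2 values (a fold change and an average level) and p-values of their comparison, which were not used.

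Entries for reads aligned to several places or ambiguous between genes (4.93% to 5.72% of a library) were left out. TMM factors lay between 0.923 and 1.04. The main test was the quasi-likelihood test of edgeR 4.0.16 (R 4.3.3), Benjamini-Hochberg adjusted over 14484 genes. filterByExpr removed no gene, and every gene in the table already had 1 CPM in at least 3 libraries. CPM are TMM-scaled, and log2 CPM use a prior count of 2. The SE was taken from the fold change and the F statistic, as their ratio after a square root of F. The script was tested on simulated data. No pair of libraries of a group agreed within sampling noise (chi-square per degree of freedom at least 55.5). Positions and exon lengths come from GENCODE M21 (mm10), and promoters from RefSeq.

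The members, gene lists and naming rule were chosen with earlier results of these data known. The rule named Lor, Flg2, Ivl and S100a3 and, per subfamily, the 2 most abundant members, the 2 with the smallest p and the 2 with the widest gap between hair-rich and other libraries in each direction. Of each gene list the rule also named the 2 measured genes with the smallest p. Tgm5, Klk5, Tchh, Kprp, Il1b, BC100530, Defb14 and Sox10 are named for this, and the others of this kind are not described. Other members are described by their values. Dct, Krt5, Krt10, Krt17 and Tgm3 are outside the rule, picked with their values known, as were Stfa3, Csf3r and Clec4d. Alternatives were RLE factors, no filter, a filter at 1 CPM in 3 samples, DESeq2 1.42.0, limma-voom (limma 3.58.1), edgeR's exact test, the replicate number as a block, the hair list level or the level of 4 Y-linked genes as a covariate, and leaving out each library.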

Additional observations from a re-analysis of the deposited data

How the results depend on the processing

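Of the 40 members, 0 were called under the main test and under each alternative. Unadjusted p under 0.05 reached 5 members with the replicate block, 13 without ATR WT 1, 10 without ATR mD/mD 3, 1 without ATR mD/mD 1 and 0 in the other settings. The share of all genes under 0.05 was 1.66% in the main test and was not counted in the alternatives. Calls over all genes were 7 in the main test, 39 with DESeq2, 25 with edgeR's exact test, 4 with the Y-linked covariate, and 4 to 10 with 1 library left out. Members with a negative log2 fold change numbered 18, and 10 to 23 with 1 library left out. Their median was 0.05, turned to -0.0011 with the Y-linked covariate and ran from -0.034 to 0.142 with 1 library left out. The replicate numbers did not pair the samples: deviations of same-numbered libraries correlated at 0.633, -0.509 and 0.573, and not every library correlated best with its own number. With the replicate block, 6 genes were called, 20 members were negative and the median was 0.02.

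Of 300 repeats of the fold changes of 20 named members, 32 changed sign and 268 kept it. With the hair covariate the sign turned in Ivl (0.171), Lce1c (-0.108), Rptn (0.294), S100a14 (0.011), S100a7a (0.117), Sprr1b (0.863) and Sprr2h (0.648). With the Y-linked covariate it turned in Rptn (0.233) and S100a6 (-0.065). S100a6 also turned with limma-voom (-0.044) and the replicate block (-0.054). With 1 library left out, log2 fold changes ran from -0.443 to 0.147 in Ivl, -0.053 to 0.858 in Lce1c, -0.013 to 1.31 in Lce1m, -0.113 to 1.01 in Lor, -0.656 to 0.396 in Rptn and -0.356 to 0.056 in S100a14. They ran from -5.74 to 0.134 in S100a3, -0.413 to 0.284 in S100a6, -0.927 to 0.186 in S100a9, -4.57 to 0.917 in Sprr1b and -4.77 to 0.373 in Sprr2h. For genes that kept their sign, the lowest and highest values with 1 library left out stand beside the gene above. The cause was not tested. Depth limits Sprr2h and Sprr1b most, with 2 to 10 counts in the libraries poor in hair.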
